A study of Rattus norvegicus with 3 samples.

Results

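The genes described are 10 Toll-like receptor and endotoxin sensing genes of the rat, namely the receptors Tlr2, Tlr3, Tlr4 and Tlr7, the endotoxin-binding proteins Cd14, Ly96 and Lbp, the adaptor Myd88 and the inhibitors Irak3 and Tnfaip3. They were chosen by name, with earlier results of these data known. Their probes were found on the arrays through the RefSeq accession of each probe that is not a control, matched to the rat gene symbol. In this way 9 of the 10 genes had a named probe, among 13351 genes named in all. Cd14 had 2 probes and the other genes 1 each. Tnfaip3 had no probe named in this way, and its RNA is not analysed here. All 9 were well above background on at least 1 array, by the scanner software's own call, and belong to the 10009 genes used in the comparisons.

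Cy3-labeled cRNA of 3 kinds of F344 rat cells was hybridized to 1 whole rat genome oligonucleotide array each. The question of the study was how a rat osteosarcoma line and a malignant fibrous histiocytoma (MFH) line differ in gene expression from mesenchymal stem cells (MSCs). COS1NR is the osteosarcoma line and MFH1NR the MFH line. Both were established from tumors that 4-HAQO had induced in F344 rats, and both carry a p53 mutation per the methods. The MSCs came from the bone marrow of F344 femurs and were obtained by adherence to plastic. Per the paper they were not sorted by surface markers, and they were grown with a higher share of serum than the lines. Each group is 1 array, and the labels give neither age nor sex nor any treatment of the cultures. Without replicates, no spread between cultures could be measured and no difference was tested. The arrays of COS1NR and MFH1NR shared 1 slide and 1 scan, while the MSC array lay on another slide with a scan of its own, so wherever MSCs are compared, the slide and the cells cannot be told apart. Both of these comparisons use the same MSC array.

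Toll-like receptors sense conserved parts of microbes. Tlr2 at the cell surface recognizes bacterial lipoproteins, Tlr4 with its partner Ly96 (MD-2) recognizes endotoxin, and Tlr3 and Tlr7 inside endosomes recognize viral RNA. Lbp carries endotoxin from serum to Cd14, which passes it to Ly96 and Tlr4, and Myd88 then recruits IRAK kinases to activate NF-kB, while Irak3 and Tnfaip3 restrain the signal. These genes are best known from macrophages and other myeloid cells, but mesenchymal cells express several of them.

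NF-kB is both the end of this pathway and a regulator of several of its genes, so promoters of 3 genes that differed between the sarcoma lines are shown here, those of the receptors Tlr2 and Tlr4 and of the inhibitor Irak3. The RefSeq promoter table of the GRCr8 assembly held 8 of the 10 genes, and it had no entry for Ly96 and Lbp. Each line below gives the 250 bases before the annotated start, 5′ to 3′ in the orientation of the gene, with every match to an NF-kB pattern (GGG, any 5 bases, then CC) on either strand in capitals, overlapping matches run together. The windows are chr2:171504558-171504807 on the minus strand for Tlr2, chr5:85160997-85161246 on the plus strand for Tlr4 and chr7:57598632-57598881 on the minus strand for Irak3.
Tlr2: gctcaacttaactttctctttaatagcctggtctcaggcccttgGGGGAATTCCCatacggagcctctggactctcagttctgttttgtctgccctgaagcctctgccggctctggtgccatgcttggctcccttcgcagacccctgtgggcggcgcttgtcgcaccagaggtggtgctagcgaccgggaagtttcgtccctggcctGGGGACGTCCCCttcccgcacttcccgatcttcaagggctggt
Tlr4: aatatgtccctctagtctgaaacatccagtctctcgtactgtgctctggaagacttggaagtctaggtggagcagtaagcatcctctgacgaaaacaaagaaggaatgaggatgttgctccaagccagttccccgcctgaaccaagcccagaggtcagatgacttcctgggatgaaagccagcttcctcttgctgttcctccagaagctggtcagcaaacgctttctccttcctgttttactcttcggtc
Irak3: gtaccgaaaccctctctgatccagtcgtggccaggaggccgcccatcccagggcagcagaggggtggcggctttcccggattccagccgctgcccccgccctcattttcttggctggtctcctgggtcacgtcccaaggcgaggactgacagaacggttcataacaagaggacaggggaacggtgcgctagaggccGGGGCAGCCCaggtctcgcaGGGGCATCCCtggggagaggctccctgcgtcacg

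The Tlr2 window held 2 such stretches, between 206 and 196 and between 43 and 32 bases before the start. The Irak3 window also held 2, between 54 and 45 and between 34 and 25 bases before the start, and the Tlr4 window held none. The pattern was found in 4 of the 8 promoters, those of Tlr2, Tlr3, Irak3 and Tnfaip3, against 42.3% of 33469 promoters in the table. In the Tnfaip3 window 6 stretches matched. The interferon response pattern (GAAA, any 2 bases, then GAAA), present in 3.41% of all promoters, was found in that of Myd88 alone among the 8, and the AP-1 pattern TGANTCA, present in 6.34%, in those of Myd88 and Tnfaip3. The PU.1 pattern GAGGAAGT, present in 2.04%, was found in none of the 8. A match of letters is a description of these windows and not a measure of binding, and no match says only that the letters are not there.

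In the values below, a scaled intensity is the background-subtracted intensity of a probe over the 75th percentile of its array, so that 1 is the level of that percentile. The error given with it is the scanner software's estimate for the single spot, and the SE of a log2 ratio was computed from these spot errors. Neither covers the spread between cultures or labelings, and levels are set against each other only for the same probe, or for the sum over the same marker probes. A ratio was counted where it reached 2-fold. Where 1 of the 2 arrays compared did not measure a probe well above background, the dim side was replaced by the lowest level well above background on that array and the result is given as "at least".

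Among the receptors, Tlr2 and Tlr3 were much lower in MFH1NR than in either of the other cells, Tlr4 was high in MFH1NR alone, and Tlr7 was measured in MSCs alone. Tlr2 had a scaled intensity of 21.4 ± 2.14 in MSCs, of 18.9 ± 1.89 in COS1NR and of 0.573 ± 0.0577 in MFH1NR. The spot errors of MSCs and COS1NR overlapped, and MFH1NR lay far below both. In log2, Tlr2 was -0.18 (SE 0.20) in COS1NR relative to MSCs and -5.22 (SE 0.20) in MFH1NR, which was 37.4-fold lower.

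Tlr3, the sensor of viral double-stranded RNA, had scaled intensities of 1.17 ± 0.117 in MSCs, of 0.760 ± 0.0765 in COS1NR and of 0.144 ± 0.0160 in MFH1NR. Its order was the same as that of Tlr2, with a smaller distance of MFH1NR from the others. The log2 ratio to MSCs was -0.62 in COS1NR, short of 2-fold, and -3.02 (SE 0.22) in MFH1NR, which was 8.10-fold lower.

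Tlr4, the signaling receptor for endotoxin, ran the other way. Its scaled intensity was 0.0660 ± 0.00952 in MSCs and 1.33 ± 0.133 in MFH1NR, and in COS1NR, at 0.00803, the probe was not well above background. MFH1NR was 20.2-fold higher than MSCs (log2 4.33, SE 0.25). COS1NR was at least 1.74-fold lower than MSCs, a bound short of 2-fold, set by the lowest scaled level well above background on the COS1NR array, 0.0380. Between the lines, MFH1NR was at least 35.0-fold higher than COS1NR. With normexp, another background correction, these values were smaller, at 3.07 in log2 for MFH1NR against MSCs and a bound of 4.02 against COS1NR. The normexp setting also adds 50 to every intensity, which by itself shrinks the ratios of dim spots.

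Tlr7, an endosomal sensor of single-stranded RNA, had a scaled intensity of 0.258 ± 0.0266 in MSCs and was not well above background in COS1NR (0.00838) or in MFH1NR (0.00659). Relative to MSCs it was lower by at least 6.79-fold in COS1NR and by at least 8.52-fold in MFH1NR. With normexp these bounds were smaller, at -2.02 and -2.11 in log2. No ratio between the lines can be given, since neither measured it.

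**Figure D1:**
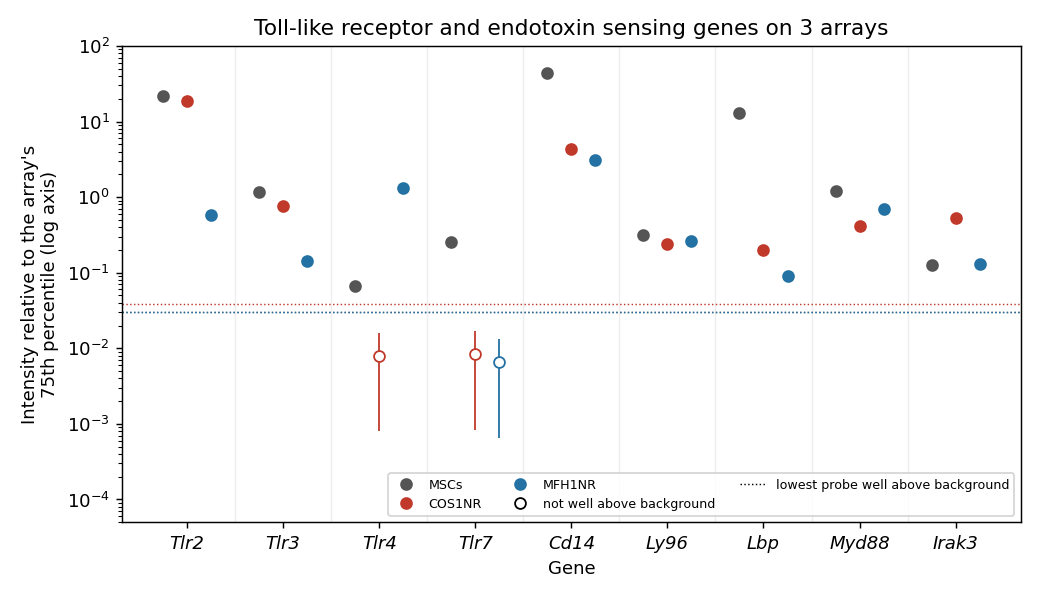
Scaled intensity (relative to the array's 75th percentile, log axis) of the 9 measured genes in MSCs, COS1NR and MFH1NR, 1 array each. Bars are the software's spot error, mostly smaller than the points, open points are not well above background, and dotted lines mark the lowest probe well above background on each array. Tlr2 lies near 20 in MSCs and COS1NR and at 0.573 in MFH1NR, while Tlr4 is highest in MFH1NR at 1.33.

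Of the endotoxin-binding proteins, Cd14 and Lbp were far lower in both lines than in MSCs, and Ly96 stayed within 2-fold across the 3 arrays. The first Cd14 probe had scaled intensities of 43.5 ± 4.35 in MSCs, of 4.38 ± 0.438 in COS1NR and of 3.11 ± 0.311 in MFH1NR. The second had 8.73 ± 0.873, 0.863 ± 0.0867 and 0.617 ± 0.0621 in the same order. On both probes MSCs stood apart and the lines were close to each other. By the first probe Cd14 was 9.94-fold lower in COS1NR and 14.0-fold lower in MFH1NR than in MSCs, and by the second 10.1-fold and 14.1-fold lower, so the probes differed by less than 0.1 in log2.

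Lbp, the serum protein that transfers endotoxin to Cd14, had scaled intensities of 12.8 ± 1.28 in MSCs, of 0.197 ± 0.0220 in COS1NR and of 0.0899 ± 0.0117 in MFH1NR. It showed the widest gap between MSCs and the lines among the genes with a measured ratio, which leaves out Tlr7 and Tlr4 in COS1NR. It was 65.0-fold lower in COS1NR (log2 -6.02, SE 0.22) and 142-fold lower in MFH1NR (log2 -7.15, SE 0.24) than in MSCs. The MFH1NR spot was dim, with an unscaled intensity of 89.4, and with normexp the log2 ratios were -5.55 and -6.30. Ly96, the subunit that binds endotoxin on Tlr4, had scaled intensities of 0.316 ± 0.0328, 0.240 ± 0.0256 and 0.265 ± 0.0275 in MSCs, COS1NR and MFH1NR. None of its ratios reached 2-fold, with log2 values of -0.40 for COS1NR and -0.25 for MFH1NR relative to MSCs and 0.15 for MFH1NR relative to COS1NR, and the last of these came to 0.94 with spike-in scaling. MFH1NR thus had Tlr4 and Ly96 both well above background and Cd14 and Lbp below their MSC level, whereas COS1NR had no measured Tlr4 beside a Ly96 level like that of the other cells.

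Myd88, the adaptor of most Toll-like receptors other than Tlr3, had scaled intensities of 1.19 ± 0.119 in MSCs, of 0.409 ± 0.0416 in COS1NR and of 0.699 ± 0.0702 in MFH1NR. It was lowest in COS1NR. COS1NR was 2.90-fold lower than MSCs (log2 -1.54, SE 0.21), and MFH1NR was 1.70-fold lower, short of 2-fold. Irak3 (IRAK-M), a kinase-like inhibitor of the Myd88 pathway, had scaled intensities of 0.126 ± 0.0143 in MSCs, of 0.536 ± 0.0544 in COS1NR and of 0.129 ± 0.0146 in MFH1NR. COS1NR alone was high, and the spot errors of MSCs and MFH1NR overlapped. COS1NR was 4.26-fold higher than MSCs (log2 2.09, SE 0.22), and MFH1NR differed from MSCs by 0.03 in log2. The MSC spot was dim, with an unscaled intensity of 74.1, and with normexp the COS1NR ratio was 1.36 in log2. Irak3 was the 1 gene of the 9 to be at least 2-fold higher in COS1NR than in MSCs, and Myd88, the adaptor of the complex that it inhibits, was lower in the same cells.

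Of the 9 genes counted together, 4 were at least 2-fold lower in COS1NR than in MSCs (Tlr7, Cd14, Lbp and Myd88), where 19.4% of all genes used were lower, and 1 (Irak3) was higher, where 20.0% were. In MFH1NR 5 of 9 were lower than in MSCs (Tlr2, Tlr3, Tlr7, Cd14 and Lbp) against 21.2% of all genes used, and 1 (Tlr4) was higher against 19.0%. The genes lower in both lines were Tlr7, Cd14 and Lbp, 3 of 9 against 12.9%, and none of the 9 was higher in both lines, where 10.8% of all genes used were. Taken over the 9 genes, the median log2 ratio to MSCs was -0.80 for COS1NR and -3.02 for MFH1NR, with bounds where a probe was dim, against 0.11 and 0.02 over all genes used. The COS1NR median is the Tlr4 bound, and with dim probes at their own scaled intensity in place of bounds the median was -1.54, the value of Myd88. With 9 genes these are descriptions of the genes named and of nothing wider.

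**Figure D2:**
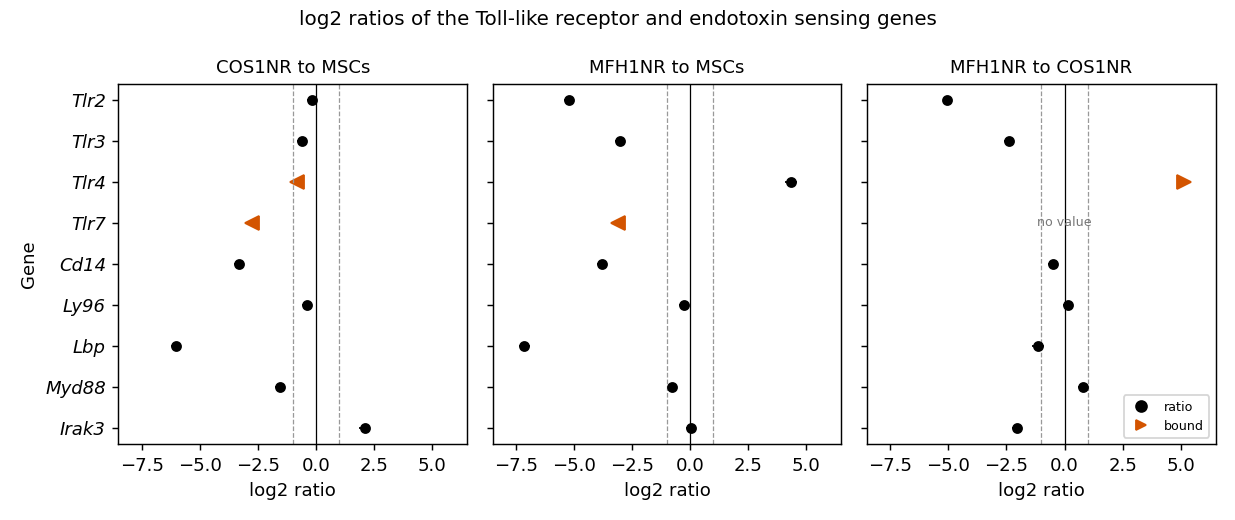
The log2 ratios (x axis) of the 9 genes (y axis) in COS1NR against MSCs, MFH1NR against MSCs and MFH1NR against COS1NR. Circles are ratios with the SE from the spot errors as bars, mostly hidden by the circle, triangles are bounds pointing the way the true value may lie, and dashed lines mark 2-fold. Lbp is the lowest in both comparisons with MSCs at -6.02 and -7.15, and Tlr4 is the gene furthest up in both comparisons of MFH1NR at 4.33 and at least 5.13.

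Between the lines, which shared slide and scan, 4 of the 9 genes had an MFH1NR level at least 2-fold below that in COS1NR, against 14.2% of all genes used, and 1 was higher, against 11.7%. Tlr2 was 32.9-fold lower (log2 -5.04), Tlr3 was 5.28-fold lower (log2 -2.40), Irak3 was 4.17-fold lower (log2 -2.06) and Lbp was 2.19-fold lower (log2 -1.13). Tlr4 was the higher one. The median over the 8 genes with a value was -0.81 in log2, against -0.09 over all genes used. The Lbp difference, in dim spots on both arrays, fell short of 2-fold at -0.77 without scaling, -0.34 with spike-in scaling and -0.75 with another background correction. Cd14 (log2 -0.49), Ly96 (0.15) and Myd88 (0.78) did not reach 2-fold, but Myd88 did so at 1.14 without scaling and 1.57 with spike-in scaling.

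The other genes of the pathway were taken from 8 lists with 94 genes, of which 70 had a named probe and 66 were used. Of these 66 genes, 31 (47.0%) were at least 2-fold lower and 5 (7.58%) higher in COS1NR than in MSCs, against 19.4% and 20.0% of all genes used. In MFH1NR 38 (57.6%) were lower and 2 (3.03%) higher, against 21.2% and 19.0%. In both lines 29 were lower and 0 higher, where 12.9% and 10.8% of all genes used were. Their median log2 ratio was -0.91 in COS1NR and -1.60 in MFH1NR. The lists differed widely, from kinases with few genes past 2-fold to target genes with most of them lower.

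Of 11 other Toll-like receptors and partners, 6 had a named probe and 3 could be used. Tlr6, which pairs with Tlr2, had scaled intensities of 2.40 in MSCs, of 1.53 in COS1NR and of 0.503 in MFH1NR, and so followed the order of Tlr2 with a ratio of MFH1NR to MSCs of -2.25 in log2. Tlr9, the sensor of bacterial DNA, differed little, with log2 ratios to MSCs of 0.24 and 0.09. Tlr5, the flagellin receptor, was dim, with unscaled intensities of 33.5 in MSCs and 63.0 in COS1NR, and its spot on the MFH1NR array was left out as non-uniform. Tlr10 and the receptor-like Cd180 were not well above background on any array. Ly86 (MD-1), the partner of Cd180, lay below its MSC level by at least 4.81-fold in COS1NR and at least 6.04-fold in MFH1NR. Tlr1, Tlr8, Tlr11, Tlr12 and Tlr13 had no named probe.

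The lists of receptor trafficking, adaptors and kinases had medians between -0.49 and -0.04 in log2, though the COS1NR median of the 3 adaptors (-0.22) is the bound of a dim probe and was -2.43 without bounds. Of 5 genes of receptor trafficking, 1 was lower in both lines, Cnpy4, a protein that binds Tlr4, with log2 ratios of -2.07 and -1.92. Of 15 kinases and ubiquitin ligases, 2 were lower in both lines, a share near the 12.9% of all genes used, namely Peli1, a ubiquitin ligase that acts on IRAK kinases (log2 -3.14 in COS1NR and -2.10 in MFH1NR, while the second probe gave -4.04 and -2.83), and the kinase Irak2 (at least 6.33-fold lower in COS1NR and -2.18 in log2 in MFH1NR). The medians of these 15 were -0.35 and -0.04. Ikbkg, the regulatory subunit of the IkB kinase, was the 1 kinase-list gene higher in MFH1NR, at 1.49 in log2. Of 3 adaptors, Pik3ap1, which links receptors to PI3 kinase, was lower by at least 16.2-fold in COS1NR and 20.3-fold in MFH1NR, while Sarm1, which restrains Ticam1 signaling, was 5.16-fold higher in COS1NR and at -0.35 in log2 in MFH1NR. Ikbkg and Sarm1, and below Irf5, Otud7b, Il6, Cxcl1 and Nos2, are named because they were the few that were higher, and were chosen after their values were seen.

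The lists of inhibitors, transcription factors and target genes had lower medians. Over all genes used, 19.4% were lower in COS1NR and 21.2% in MFH1NR. Of 15 other inhibitors, 6 were lower in COS1NR and 11 in MFH1NR, with medians of -0.89 and -1.83. Socs1, a suppressor of cytokine signaling, had a log2 ratio of -3.22 for COS1NR and -2.29 for MFH1NR, and Nfkbie, an inhibitor of NF-kB, had -3.08 and -4.04. Otud7b, a deubiquitinase, was the 1 inhibitor counted as higher, by 2.09-fold in COS1NR, but its second probe gave 0.45 in log2, short of 2-fold. Il1rl1 was at -0.24 in COS1NR by the probe used, but at 1.45 by a second probe for another RefSeq transcript. It too is named after its values were seen. Of 6 transcription factors, 5 were lower in COS1NR and 4 in MFH1NR. Irf1 led them with -4.51 and -4.23, and Irf7, the factor of type I interferon induction, followed with -2.55 and -3.12. Irf5, which acts after Tlr7 and Myd88, was -1.31 in COS1NR and 2.37 in MFH1NR. Of 3 cytosolic sensors, Casp4, a sensor of intracellular endotoxin, had -3.65 and -1.38, and Ifih1, a sensor of viral RNA, had -2.45 and -2.37.

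Of 16 target genes, 12 were lower and 3 higher in COS1NR and 14 were lower in MFH1NR than in MSCs, with medians of -3.60 and -4.81 in log2. The 3 higher ones are a share near the 20.0% of all genes used that were higher in COS1NR, while 19.4% and 21.2% of all genes used were lower in COS1NR and MFH1NR. The chemokine Ccl4 had -7.86 and -8.58, and the cytokine Il1b had -4.89 in COS1NR and a bound of at least 1691-fold in MFH1NR, also lower. The 3 that were higher in COS1NR were Il6 (log2 1.44), Cxcl1 (1.39) and Nos2 (1.34), which encode a cytokine, a chemokine and an inducible nitric oxide synthase. In MFH1NR, Il6 was at -4.48 and Cxcl1 at -0.93, and Nos2 was at least 6.41-fold lower.

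**Figure D3:**
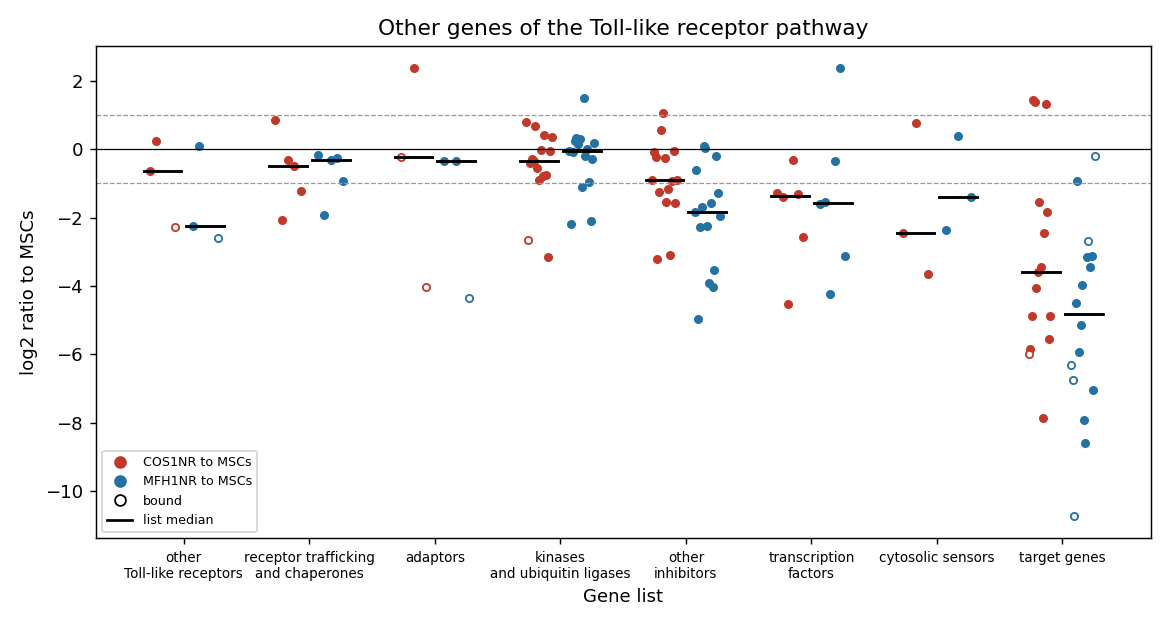
The log2 ratio to MSCs (y axis) of each used gene of the 8 pathway lists (x axis), in COS1NR and in MFH1NR. Filled points are ratios, open points are bounds, black bars are list medians and dashed lines mark 2-fold. The target genes lie lowest, with medians of -3.60 and -4.81, and the kinases lie near 0.

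Markers of macrophages and of mesenchymal cells were mostly lower in the lines than in MSCs, while those of other cells varied. Of 18 macrophage markers listed, 16 had a named probe, and all 16 were well above background in MSCs, 8 in COS1NR and 7 in MFH1NR. The scaled intensity summed over these same 16 probes, dim ones included, was 159 in MSCs, of which Lyz2 gave 54.8, against 8.71 in COS1NR and 2.27 in MFH1NR. All 16 were at least 2-fold lower in both lines, by ratio or bound, against 12.9% of all genes used. With 8 of the 16 values as bounds in COS1NR and 9 in MFH1NR, their median in log2 was -4.37 and -5.43, and without bounds it was -5.27 and -6.16. The lysozyme Lyz2, for example, was lower by at least 1444-fold in COS1NR, and Tyrobp, a signaling adaptor of myeloid receptors, was 311-fold lower. Mesenchymal markers, all 10 of which were well above background in MSCs, were at least 2-fold lower for 7 of 10 in COS1NR (median log2 ratio -2.76) and 6 of 10 in MFH1NR (-1.28), against 19.4% and 21.2% of all genes used. These counts depend on the probe used. Second probes gave -3.69 and -3.35 in COS1NR and MFH1NR for Col1a1, in place of -0.33 and -0.38. They gave -4.56 in place of -0.98 for Col1a2 in MFH1NR, and -1.93 in place of -0.57 for Cd44 in COS1NR. For Cd44 in MFH1NR the second probe gave -0.10 in place of -0.93. Endothelial markers were lower for 2 of 3 used in each line, and osteoblast markers for 4 of 6 in COS1NR and 3 of 6 in MFH1NR, where 2 were higher. Neutrophil and T cell markers were not lower in COS1NR, where 2 of 3 and 1 of 2 were higher, and in MFH1NR 1 of 3 neutrophil markers and none of 2 T cell markers were lower. Over all genes used 20.0% were higher in COS1NR and 19.0% in MFH1NR, and counts over lists of 2 to 6 markers are too small to set against these shares. The part of these cell types in the lower Tlr2, Tlr3, Tlr7, Cd14, Lbp, Myd88 and pathway values of the lines was not tested. Fewer cells of a type and less RNA per cell cannot be told apart in RNA of whole cultures.

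**Figure D4:**
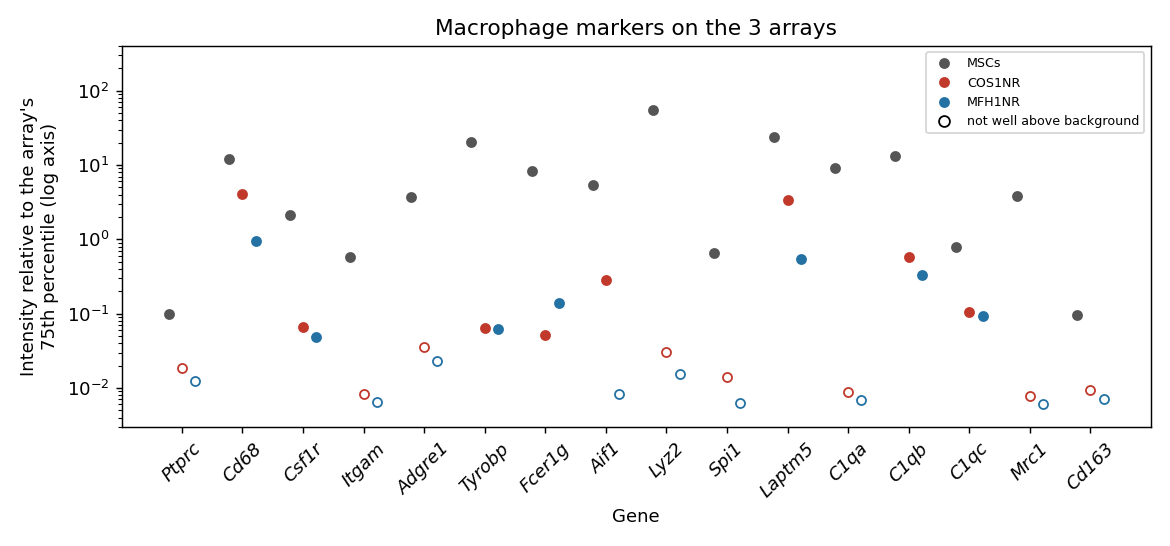
Scaled intensity (relative to the array's 75th percentile, log axis) of the 16 macrophage markers with a named probe in MSCs, COS1NR and MFH1NR. Open points are not well above background. Every marker is highest in MSCs, and 8 of them, such as Lyz2 and C1qa, are not well above background in either line.

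In the lines, Ptprc, Itgam, Adgre1, Lyz2, Spi1, C1qa, Mrc1 and Cd163 were not well above background. The other 8 were well above it in COS1NR, among them Cd68 at a scaled intensity of 4.05 and Laptm5 at 3.37, and all of these but Aif1 were so in MFH1NR. For C1qc this holds for the probe used only. Its other probe, at 2.89 in MSCs, was not well above background in either line. Of the 16, 3 (Cd68, Aif1 and Laptm5) were lower and 1 (Fcer1g) was higher in MFH1NR than in COS1NR, where 14.2% and 11.7% of all genes used were. The part of these markers in the differences between the lines was not tested. Of 4 other lists of blood and vessel cells, none had more than 3 markers well above background on an array. In MSCs, COS1NR and MFH1NR the counts were 1, 3 and 0 of 6 for neutrophils, 3, 2 and 1 of 6 for T cells, 0 of 2 on each array for B cells, and 3, 2 and 1 of 6 for endothelial cells. The mesenchymal markers above background were 10, 7 and 8 of 10, and those of osteoblasts 5, 4 and 5 of 6, so COS1NR, labelled as osteosarcoma, had no more of the osteoblast markers than the other cells.

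Each array held 43379 spots that are not controls, of which between 56.6% and 59.7% were well above background, and none was saturated. The 75th percentiles that set the scale were 589, 774 and 994 for MSCs, COS1NR and MFH1NR. Of the 9 genes, 9 were well above background in MSCs, 7 in COS1NR, 8 in MFH1NR and 7 on all 3 arrays, which is near the shares of all genes used (92.6%, 87.3%, 88.6% and 79.2%). Replicate spots of a probe within an array had an SD between 0.0475 and 0.0583 in log2. In the 1895 genes with a second probe, the probes differed at the median by 0.28 in log2 for the ratio of COS1NR to MSCs and by 0.31 for that of MFH1NR to MSCs, with 90th percentiles of 0.91 and 0.99, close to 2-fold. Of the 9 genes, only Cd14 has more than 1 probe. The number of arrays limits the precision.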

How the data were processed

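RNA of MSCs, COS1NR and MFH1NR was measured on 1 Agilent whole rat genome array each (1 colour, Cy3). The kits for RNA (RNeasy mini) and labeling (Quick Amp) that the methods name are not those of the labels (FastTrack mRNA isolation, One-Color Low RNA Input). The authors deposited the output of Agilent Feature Extraction (version 10.5.1.1 in the file headers, 9.1 in the submitters' processing notes), whose processed intensity is background-subtracted and detrended within the array but not scaled between arrays. A deposited table of the whole series held the same intensity values. Samples were grouped by their titles.

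Control spots and spots called outliers (187 to 217 per array) were left out, spots of a probe were averaged in log2, and log2 intensities were set relative to the 75th percentile of the non-control spots of their array. Of 20503 probes with a RefSeq accession, 16815 were named through the gene table of GRCr8. The array design was annotated on an earlier build, so gene positions on it are left out. The probe with the highest mean log2 intensity stood for its gene, which was used if this probe exceeded background clearly on 1 or more arrays (the software's call) and had a spot left on all 3. Where it was not so on 1 of 2 arrays, the bound is the brighter level over the dim one, or over the lowest level well above background on the dim array where that was higher. Genes at least 2-fold apart by ratio or bound were counted, and no test was made.

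The members, gene lists, marker lists (macrophage, neutrophil, T cell, B cell, endothelial, mesenchymal, osteoblast) and motifs were chosen with earlier results of these data known. Named are all members, from each pathway list up to 2 genes with the largest and up to 2 with the smallest mean of both log2 ratios among those past 2-fold in both lines in 1 direction, all other Toll-like receptors, and the defining markers. Alternatives were no scaling, median, quantile or spike-in scaling, normexp correction, the table of the whole series, a mean over all probes, the second probe, a stricter filter on dim probes, no filter, a common floor and a 3-fold threshold. The normexp correction was run with an offset of 50 added to every intensity. The counting step was tested on simulated data, with each gene at its highest level over the 3 arrays and changes far past 2-fold. That hardly tries dim probes, bounds or ratios near 2-fold. Tools were limma 3.58.1 under R 4.3.3 (normexp) and, for all else, Python 3.11.15 with pandas 2.3.3, numpy 2.4.6, matplotlib 3.10.9 and scipy 1.17.1.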

Additional observations from a re-analysis of the deposited data

Results flagged for a closer look

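Some genes moved in opposite directions in the lines, each by at least 1.5-fold relative to the same MSC array. The difference between the lines was not tested, since each is 1 array, and a bound is given where a probe was dim. Tlr4 had a log2 bound of -0.80 in COS1NR and a ratio of 4.33 in MFH1NR. Irf5, a transcription factor of the same pathway, had -1.31 and 2.37, in the same directions as Tlr4. The target genes Il6, Cxcl1 and Nos2 ran the other way. Il6 had 1.44 in COS1NR and -4.48 in MFH1NR, Cxcl1 had 1.39 and -0.93, and Nos2 had 1.34 and a bound of -2.68. The Tlr4 bound in COS1NR was -0.40 without scaling, which is under 1.5-fold, while MFH1NR stayed higher. Cxcl1 in MFH1NR was also under 1.5-fold without scaling (-0.18) and with spike-in scaling (-0.42). In COS1NR, Irf5 fell short of 2-fold without scaling at -0.92 and Nos2 with normexp correction at 0.97, and neither turned its direction there.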

How the results depend on the processing

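Under the 12 alternatives, 189 values of the 16 ratios past 2-fold were computed for the 9 genes. Many of these could not differ from the report. The table of the whole series held the same intensities, and only Cd14 has a second probe. The filter, bound and floor settings act on dim probes only, and the 3-fold setting moves the threshold but no value. Only the scaling settings and normexp could move every ratio. None of the 189 changed direction, and 184 stayed past the threshold. The 5 that did not were Myd88 in COS1NR against MSCs at a 3-fold threshold (-1.54) and Lbp in MFH1NR against COS1NR without scaling (-0.77), with spike-in scaling (-0.34), with normexp (-0.75) and at 3-fold. Newly past it were Tlr4 in COS1NR against MSCs with spike-in scaling (-1.07) and without bounds (-3.04), and Myd88 in MFH1NR against COS1NR without scaling (1.14) and with spike-in scaling (1.57). The count of genes higher in MFH1NR than in COS1NR, 1 in the report, was 2 without scaling, 2 with spike-in scaling and 0 when both arrays had to be well above background, since Tlr4 then has no ratio. Over all settings, log2 ratios in COS1NR against MSCs ran from -4.94 to -2.02 for Tlr7, -3.59 to -2.92 for Cd14, -6.30 to -5.55 for Lbp, -1.81 to -1.15 for Myd88 and 1.36 to 2.48 for Irak3. In MFH1NR against MSCs they ran from -5.22 to -4.47 for Tlr2, -3.02 to -2.26 for Tlr3, 3.07 to 5.09 for Tlr4, -5.29 to -2.11 for Tlr7, -3.82 to -3.05 for Cd14 and -7.15 to -6.30 for Lbp, and between the lines from -5.04 to -4.25 for Tlr2, -2.40 to -1.61 for Tlr3, 4.02 to 7.37 for Tlr4 and -2.06 to -1.27 for Irak3. Signs of ratios short of 2-fold turned with scaling for Tlr2 in COS1NR against MSCs (-0.46 to 0.21), for Ly96 in MFH1NR against MSCs (-0.25 to 0.50) and for Cd14 in MFH1NR against COS1NR (-0.49 to 0.30). With normexp the sign turned for Irak3 in MFH1NR against MSCs (0.03 to -0.32) and for Ly96 in MFH1NR against COS1NR (0.15 to -0.0031). The pathway count lower in both lines, 29, ranged from 21 to 30.

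The scaling sets the zero of all ratios. The median over all genes, in COS1NR against MSCs, MFH1NR against MSCs and MFH1NR against COS1NR, was 0.11, 0.02 and -0.09 in the report, 0.52, 0.79 and 0.27 without scaling, 0.28, 0.23 and -0.03 with median scaling, and -0.16, 0.55 and 0.71 with 7 spike-in probes. Of genes past 2-fold in the 3 comparisons, 50.8%, 47.2% and 45.2% were higher in the report, 68.8%, 76.1% and 66.1% without scaling, and 36.8%, 69.1% and 83.1% with spike-in scaling. With median scaling 57.2% were higher in MFH1NR against MSCs. No paired analysis was possible because each group was 1 array and the labels carry no replicate numbers. Low signal limits Tlr4 in MSCs and COS1NR, Tlr7 on all 3 arrays, Irak3 in MSCs and MFH1NR, Lbp in both lines and Tlr3 in MFH1NR. Ly96 was also dim, with unscaled intensities of 186, 185 and 264 in MSCs, COS1NR and MFH1NR. With normexp, Tlr3 in MFH1NR against MSCs was -2.54 in log2, and Irak3 in MFH1NR against COS1NR was -1.68.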
